A study of Homo sapiens with 14 samples.

Results

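The replication-dependent histone genes are described here as they appeared in 2 lists of ZNF143 ChIP-seq peaks. They were chosen by symbol among the protein-coding genes of GENCODE on chromosomes 1, 6 and 12 (H1-1 to H1-6 and the H2AC, H2BC, H3C and H4C genes). The rule found 69 genes among the 19970 protein-coding genes on chromosomes 1 to 22 and X: 6 for the linker histone H1, 17 for H2A, 18 for H2B, 13 for H3 and 15 for H4. A peak was assigned to a gene when its centre lay from 2000 bp upstream to 1000 bp downstream of an annotated transcription start site (TSS), and is called a promoter peak. This gave 26 promoter peaks among the 20429 peaks of the untreated list and 34 among the 35287 peaks of the dTAG-V1 list.

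ChIP-seq was performed with a polyclonal ZNF143 antibody (Proteintech) in ZNF143-FKBP HEK293T cells, a human embryonic kidney line in which ZNF143 carries the FKBP12F36V degradation tag and an HA tag. The line is a single clone, HEK_CloneZD29, and untreated and treated samples alike carry the tag. The untreated list stands for 4 untreated samples and the other list for 4 samples given 0.5 µM dTAG-V1, a compound that directs the tagged protein to degradation, for 30 min. Each list gives 1 value per peak for the whole group, so that replicate error is unknown and no test of the treatment was made. Sequencing depth is unknown. Score, fold enrichment and q-value are on the scale of their own list, and a score is therefore also given as its percentile among all peaks of that list. Percentiles of the 2 lists were ranked among different peaks and are set side by side only as a description. Shares are given with their 95% Wilson interval, which covers counting error alone.

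Replication-dependent histone genes are expressed in S phase, when new DNA is packed into nucleosomes. Most have no intron, their mRNAs end in a stem-loop instead of a poly(A) tail, and they lie in clusters where H2A and H2B genes often form head-to-head pairs. NPAT organises their transcription in the histone locus body, HINFP binds an element of H4 promoters, and POU2F1 binds the octamer of H2B promoters. ZNF143 binds a long motif, SBS1 or SBS2 (here together SBS), that is found at many promoters of other genes.

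The genes lie in 6 clusters. On chromosome 6 there are 3, with 34 genes at chr6:25723397-26285638, 5 genes at chr6:27125897-27147562 and 16 genes at chr6:27807479-27893891 (hg38). On chromosome 1, 11 genes lie at chr1:149782689-149887965 and the pair H2AC25 and H2BC26 at chr1:228434777-228463104, while H4C16 stands alone at chr12:14767999-14771131.

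The SBS matches of these peaks are shown first, because many of them lie inside the histone genes themselves. The first 5 lines are the best SBS2 match in dTAG-V1 peaks at named H2A genes, and the next 3 are the best SBS matches at H4C4 and H4C5 and in the untreated peak at H2BC6. The last line is the match at H3-3B, a gene for the replication-independent histone H3.3, chosen after its values were seen to show a match with a much lower p-value. The matched bases are in capitals, with 5 flanking bases on each side, from hg38.
H2AC6, chr6:26124300-26124319, plus strand: cgctgGTCTCCAGTTCCCGGTGGGCcgagt
H2AC7, chr6:26199157-26199176, minus strand: ggccgGACTCCAGTTCCCTGTGGGCcgcgt
H2AC15, chr6:27838253-27838272, minus strand: ggcggGTCTTCAGTTCCCAGTGGGCcgagt
H2AC16, chr6:27865422-27865441, plus strand: tgccgGTCTCCAGTTCCCCGTGGGCcgagt
H2AC20, chr1:149887042-149887061, plus strand: cgctgGCCTCCAGTTCCCGGTAGGGcgagt
H4C4, chr6:26189198-26189215, plus strand: gtcagTTCCCGCCCTTCTGTGCAattct
H4C5, chr6:26204454-26204473, minus strand: ccaacGACTCCAGTTCCCGCCGGCAgagtc
H2BC6, chr6:26171896-26171913, plus strand: gggtcATCCCATCAACCCTCGCCaaaaa
H3-3B, chr17:75784609-75784628, plus strand: gaccgGACTGCAATTCCCAGAAGCCgtcgc

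The H2A matches resemble each other and lie in the coding sequence, for example 117 bases after the 5′ end of H2AC7 and 155 bases after that of H2AC6. Their hit p-values (the chance of such a match at 1 position of random sequence with the base frequencies of the genome) were 5.22e-07 for H2AC6, 1.21e-06 for H2AC7, 3.89e-07 for H2AC15, 3.42e-06 for H2AC16 and 4.70e-06 for H2AC20. The match at H3-3B had a p-value of 1.13e-09. Not all matches lay near the summit of the dTAG-V1 peak. Their positions from it, negative for lower coordinates, were 1267 bp for H2AC6, -30 for H2AC7, -76 for H2AC15, -16 for H2AC16 and 430 for H2AC20. For H4C4 the position was 69 bp in the dTAG-V1 and 196 bp in the untreated list, and for H4C5 -113 and -972 bp.

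The promoters of 3 members are shown because of what their peaks did. H4C11 had the second highest score of the members in the dTAG-V1 list, whereas H4C12, with an almost identical promoter, had no peak in either list. H2AC6 shares its promoter and its peak with H2BC4. The sequences are from RefSeq (GRCh38.p14), run from 250 bases before to 50 bases after the start of the gene and are written along the gene's strand. Capitals mark the elements searched: the TATA box (TATAAA), the CCAAT box (CCAAT), the octamer (ATTTGCAT), the H1 box (AAACACA) and the core of the H4 element (GGTCCG), on either strand.
H4C11, chr6:27823842-27824141, plus strand: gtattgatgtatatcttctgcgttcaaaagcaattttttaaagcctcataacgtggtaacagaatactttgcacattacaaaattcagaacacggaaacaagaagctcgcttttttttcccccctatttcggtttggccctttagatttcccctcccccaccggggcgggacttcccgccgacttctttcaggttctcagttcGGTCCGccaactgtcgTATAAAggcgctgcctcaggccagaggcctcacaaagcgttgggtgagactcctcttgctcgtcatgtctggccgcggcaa
H4C12, chr6:27831511-27831810, minus strand: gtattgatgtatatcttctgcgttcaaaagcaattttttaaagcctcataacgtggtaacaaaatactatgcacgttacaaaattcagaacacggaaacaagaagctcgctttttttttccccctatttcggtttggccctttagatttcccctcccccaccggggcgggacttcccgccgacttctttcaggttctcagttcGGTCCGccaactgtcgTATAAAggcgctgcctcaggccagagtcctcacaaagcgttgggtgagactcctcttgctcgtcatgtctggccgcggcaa
H2AC6, chr6:26123922-26124221, plus strand: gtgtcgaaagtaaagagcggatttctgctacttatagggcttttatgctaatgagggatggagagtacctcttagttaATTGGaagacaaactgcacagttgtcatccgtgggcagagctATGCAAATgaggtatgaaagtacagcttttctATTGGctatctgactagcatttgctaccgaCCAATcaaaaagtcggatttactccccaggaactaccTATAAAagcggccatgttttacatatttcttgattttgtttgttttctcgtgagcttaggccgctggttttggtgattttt

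More histone genes had a promoter peak in the dTAG-V1 list than in the untreated list, and no gene had one in the untreated list only. In the untreated list, 30 of the 69 genes had a promoter peak, or 43.5% (interval 32.4 to 55.2), close to the 40.5% of all protein-coding genes. In the dTAG-V1 list there were 45 of 69, or 65.2% (53.4 to 75.4), beside 48.2% of all protein-coding genes. All 30 genes of the untreated list were among these 45. A peak in both lists was found for 43.5% of the histone genes beside 37.2% of all genes, in the dTAG-V1 list only for 15 genes or 21.7% (13.6 to 32.8) beside 11.1%, and in the untreated list only for 0 of 69 (interval up to 5.27%) beside 3.37%. Neighbouring genes share peaks, so that these genes are not independent of each other. Of the 30 genes with a peak in both lists, the peaks overlapped at 28, the exceptions being H4C16 and H2AC15. The plot of score percentiles along the clusters shows every gene.

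**Figure D1:**
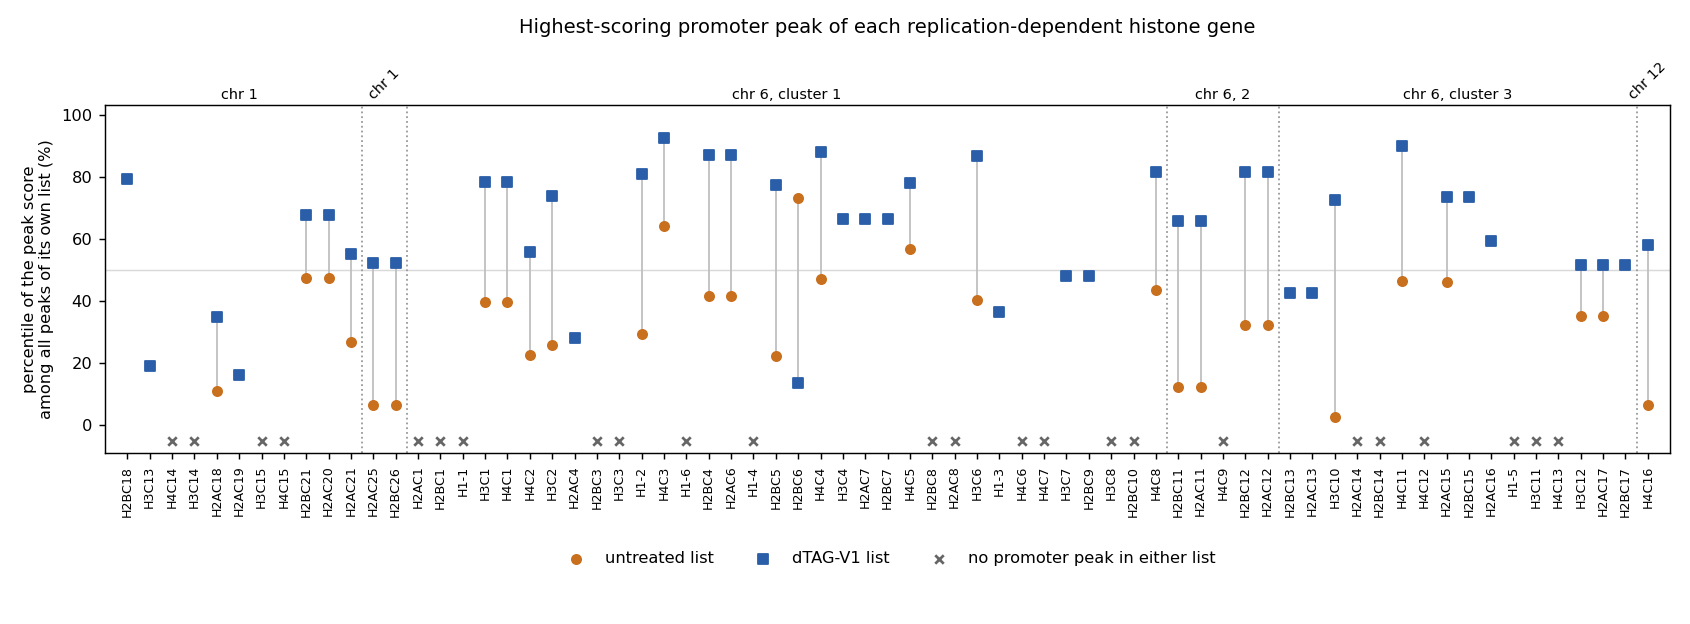
The 69 genes are arranged by cluster and position along the x axis, and the y axis gives the percentile of the score of the highest-scoring promoter peak among all peaks of the same list, as circles for the untreated list and squares for the dTAG-V1 list, with crosses below 0 for the 24 genes without a peak. The squares lie above the circles at all genes with both, except H2BC6, and percentiles are not a shared scale of signal.

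The window decides part of this count. With 500 bp on each side of the TSS, 15 genes remained in the untreated list (21.7%, beside 34.8% of all protein-coding genes) and 31 in the dTAG-V1 list (44.9% beside 39.2%). With that window, 3 genes had a peak in the untreated list only, namely H2AC25, H1-2 and H2BC5, since the centre of their broad dTAG-V1 peak lay farther from the TSS.

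By family, the counts were uneven but rest on few genes. Among all protein-coding genes, 37.2% had a peak in both lists and 11.1% in the dTAG-V1 list only. Of the H4 genes, 8 of 15 (53.3%) had a peak in both lists. In the dTAG-V1 list alone it was 0 of 15, with an interval up to 20.4% that includes the 11.1%. H2A genes had 9 of 17 (52.9%) in both lists and 5 (29.4%) in the dTAG-V1 list only. H2B genes had 7 of 18 (38.9%) and 6 (33.3%). For H3 genes the counts were 5 of 13 and 3, and for H1 genes 1 of 6 and 1. With 6 to 18 genes in a family, the intervals around these shares overlap widely, as with 53.3% (30.1 to 75.2) of H4 genes and 82.4% (59.0 to 93.8) of H2A genes in the dTAG-V1 list. Of all protein-coding genes, 48.2% had a peak in that list.

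The H4 genes, which encode the histone that forms the tetramer with H3, held the 3 highest scores of the members in the dTAG-V1 list, while H2BC6 held the highest in the untreated list. H4C3 had a peak with a score of 281 and a fold enrichment of 4.46 in the untreated list, 714 bp wide, at the 64.3 percentile. The dTAG-V1 peak at H4C3 had a score of 730 and a fold of 6.38, was 1005 bp wide and lay at the 92.5 percentile, the highest of all members. Both peaks covered 100% of the gene, and their summits lay at -40 and -28 bp from its 5′ end.

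H4C11 had 2 separate untreated peaks, with scores of 140 and 51 and widths of 351 and 442 bp. Their summits lay at -131 and 368 bp from its 5′ end, the second near the end of the gene. A single dTAG-V1 peak of 1946 bp, with a score of 462 and a fold of 5.16, covered both. For H4C4 the score was 142 in the untreated and 386 in the dTAG-V1 list, with widths of 612 and 1463 bp.

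At H4C5 the untreated peak was already broad, 1365 bp with a score of 202, and its dTAG-V1 peak was 1631 bp wide with a score of 234. H4C16 had an untreated peak of 241 bp with its summit 814 bp inside the gene, and a dTAG-V1 peak of 772 bp with its summit 13 bp after the 5′ end, which did not overlap. H4C1, H4C2 and H4C8 also had peaks in both lists, while H4C6, H4C7, H4C9, H4C12, H4C13, H4C14 and H4C15 had none.

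The promoters of H4C11 and H4C12 printed above are identical at 295 of 300 bases, with the H4 element core and the TATA box at the same distances from the start. Within 500 bp of each 5′ end, 37.1% of all stretches of 75 bases are also found elsewhere in the genome. Whether reads that match both places took part in this difference was not tested.

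H2A and H2B together form the dimers of the nucleosome, and their genes made up 12 head-to-head pairs, with 170 to 251 bp between the 5′ ends. H3C7 and H2BC9 formed the other pair of the 13, at 979 bp. Both genes of a pair had a dTAG-V1 peak in 10 pairs, and both an untreated peak in 5. The pairs H2AC1 and H2BC1, H2BC8 and H2AC8, and H2AC14 and H2BC14 had none. Where both genes of a pair had a peak, the same peak was assigned to both. The promoter windows, from 2000 bp upstream to 1000 bp downstream of a TSS, overlap at such close genes. Agreement within a pair therefore follows largely from the assignment rule, and head-to-head pairs of other genes were not counted. H2AC6 and H2BC4 shared a peak of 730 bp with a score of 119 in the untreated list, and of 1719 bp with a score of 352 in the dTAG-V1 list, at the 86.9 percentile. The summits of both peaks lay inside H2BC4, 887 and 883 bp after its 5′ end.

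Of the H2A genes, H2AC20 had the highest untreated score, 145, in a peak of 647 bp that it shares with H2BC21. That peak covered 0% of H2AC20, and its summit lay 817 bp after the 5′ end of H2BC21. The dTAG-V1 peak of the pair was 2186 bp wide with a score of 174. Both peaks also lay in a promoter window of BOLA1, a gene outside the histone set, as did the peaks of H2AC21 in both lists. The peak of H2AC25 and H2BC26 grew from 255 bp in the untreated list, with a score of 39, to 2484 bp in the dTAG-V1 list, with a score of 120. That was the widest of all 10296 promoter peaks of protein-coding genes in the dTAG-V1 list. The dTAG-V1 peak at H2BC5, with 2472 bp and a score of 230, ranked next in width, and its untreated peak had 391 bp and a score of 68.

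H2BC6 went the other way. Its untreated peak at chr6:26171664-26172124 had the highest score of the members in that list, 463, with a fold of 4.67 and the 73.1 percentile. In the dTAG-V1 list the overlapping peak had a score of 45 and a fold of 2.06, at the 13.6 percentile, and covered 415 bp. The SBS1 match printed above lay 11 bp from the untreated summit and had a p-value of 6.00e-06. This region is the 5′ end of the annotated gene, whereas the TSS of the Ensembl canonical transcript of H2BC6 lies 11702 bp away and had no peak.

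The 15 genes with a peak in the dTAG-V1 list only were mostly H2A and H2B genes. The highest score among them was 245, at H2BC18, in a peak of 1553 bp with a fold of 4.36. H2BC15 followed with 203 in the peak of 1931 bp that it shares with H2AC15, whose untreated peak of 283 bp lay farther upstream and did not overlap it. A single peak of 1623 bp with a score of 169 was assigned to H2AC7, H2BC7 and H3C4. Scores were 141 at H2AC16, 117 at H2BC17, 109 in the peak of H3C7 and H2BC9, and 95 in that of H2BC13 and H2AC13. The other 4 were H1-3, H2AC4, H3C13 and H2AC19, with scores of 82, 66, 52 and 48.

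Among the H3 genes, H3C6 had the highest score in both lists. Its untreated peak was 436 bp wide with a score of 115, and its dTAG-V1 peak 1335 bp wide with a score of 345 and a fold of 4.15, with summits 128 and 115 bp after the 5′ end of the gene. H3C10 had the weakest untreated peak of all members, with a score of 31 at the 2.54 percentile, beside a dTAG-V1 peak of 1105 bp with a score of 197 at the 72.4 percentile. H3C1 and H3C2 also had peaks in both lists, and so did H3C12. Of the H1 genes, H1-2 had 2 untreated peaks, with scores of 84 and 66, and a single dTAG-V1 peak of 1667 bp with a score of 262.

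The 24 genes without a promoter peak were H4C14, H3C14, H3C15 and H4C15 on chromosome 1 and 20 genes on chromosome 6. The latter were H2AC1, H2BC1, H1-1, H2BC3, H3C3, H1-6, H1-4, H2BC8, H2AC8, H4C6, H4C7, H3C8, H2BC10, H4C9, H2AC14, H2BC14, H4C12, H1-5, H3C11 and H4C13. The 4 genes on chromosome 1, together with H2AC18 and H2AC19, lie in DNA where 100% of the 75-base stretches around the 5′ end are found elsewhere in the genome. The authors kept uniquely mapped reads, and the part of this in the absence of peaks was not tested. Without these 6 genes, 29 of 63 genes had a peak in the untreated list and 43 of 63 in the dTAG-V1 list.

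In the dTAG-V1 list, the peaks of histone genes were wide. The 34 dTAG-V1 promoter peaks of histone genes had a median width of 1142 bp (228 to 2484), beside 505 bp for all protein-coding promoter peaks of the list. Of these, 21 of 34 were at least 1000 bp wide, or 61.8% (45.04 to 76.1), beside 7.32% of all promoter peaks. The 20 widest promoter peaks of the list included 6 of histone genes. In the untreated list, the 26 peaks had a median width of 451.5 bp, beside 490 bp for all promoter peaks, and only those of H4C5 and of H3C1 and H4C1 reached 1000 bp. The plot of peak extents shows both lists at each gene.

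**Figure D2:**
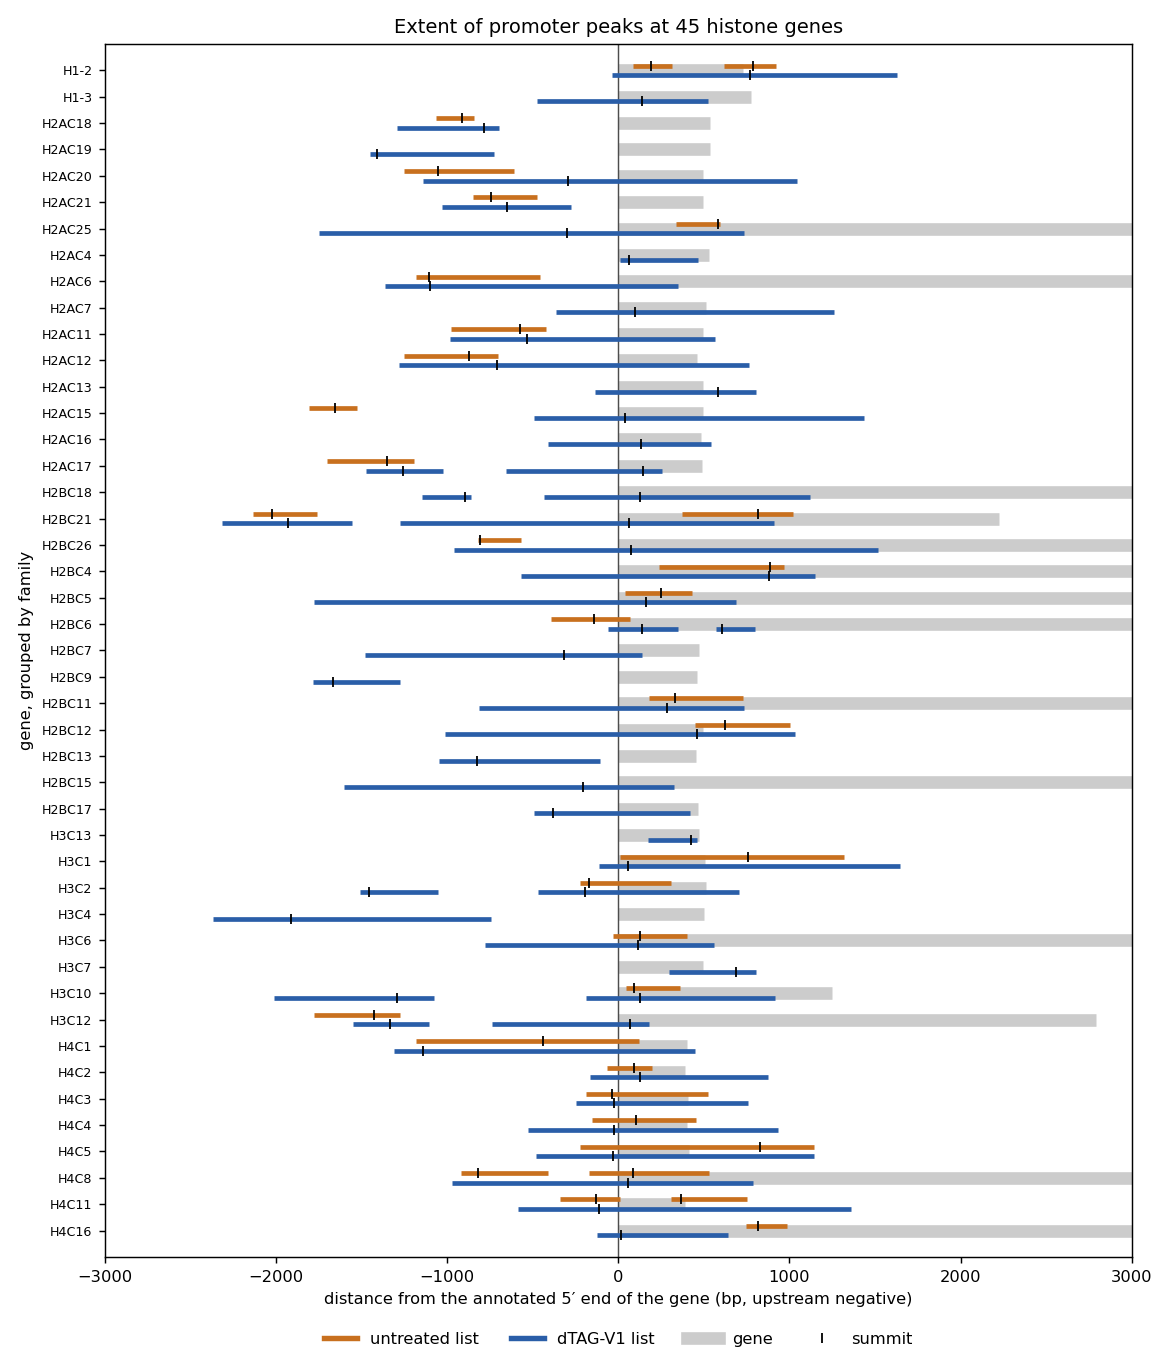
Each row is 1 of the 45 histone genes with a promoter peak, aligned at its 5′ end at 0 bp with upstream to the left, and bars show the peaks of the untreated list (upper) and the dTAG-V1 list (lower) with summits as ticks over the gene in grey, which is cut at the edge of the plot. Most dTAG-V1 bars run from the promoter through the short genes, while the untreated bars are narrower.

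The histone genes are short, and 52 of the 69 span less than 1500 bp. Of the 31 such genes with a promoter peak in the dTAG-V1 list, 17 lay whole within 1 peak, or 54.8% (37.8 to 70.8). In the untreated list it was 3 of 18. Among all protein-coding genes of that length with a promoter peak, which include the histone genes, 22 of 92 lay whole within a dTAG-V1 peak and 6 of 77 within an untreated peak.

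Regions found in both lists allow the widths to be set side by side. Merging the lists gave 36 histone promoter regions, of which 21 had peaks of both lists, 13 only of the dTAG-V1 list and 2 only of the untreated list. These shares of 58.3%, 36.1% and 5.56% lay near those of all 11501 protein-coding promoter regions, 55.9%, 33.5% and 10.6%. In the 21 shared regions, the median length covered was 537 bp in the untreated and 1549 bp in the dTAG-V1 list, and it was at least doubled in 15, or 71.4% (50.0 to 86.2). In the 6430 shared promoter regions of all protein-coding genes the medians were 537 and 628 bp, with a doubling in 10.2%. The covered length was shorter in the dTAG-V1 list at 2 regions, that of H2BC6 and that of H2AC17 and H3C12.

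**Figure D3:**
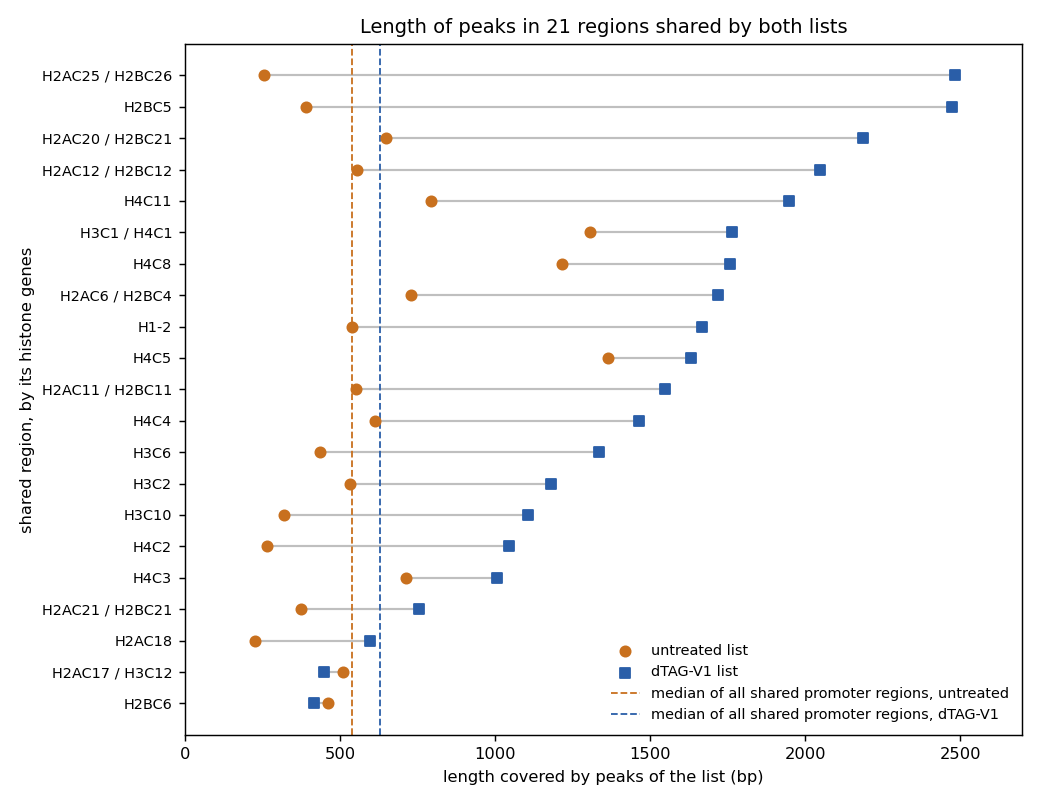
For each of the 21 regions with peaks of both lists, named by its histone genes, the x axis gives the length in bp covered by peaks of the untreated list (circles) and of the dTAG-V1 list (squares), with dashed lines at the medians of all 6430 shared protein-coding promoter regions, 537 and 628 bp. Apart from 2 regions, the squares lie to the right of the circles, up to 2484 bp.

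Ranks by score are given within each list, and a difference between them is no measure of change. In the untreated list the median percentile of the 26 peaks was 30.8 (range 2.54 to 73.1), beside 62.2 for all promoter peaks, and 3 of 26 lay in the upper part of the list, above its middle. In the dTAG-V1 list the median of the 34 peaks was 66.2 (8.48 to 92.5), beside 52.8, and 24 of 34 lay above the middle. In the shared regions the percentile was higher in the dTAG-V1 list at 19 of 21, or 90.5% (71.1 to 97.3), beside 72.6% of all shared promoter regions. The folds had a median of 2.59 and a highest value of 4.67 in the untreated list, and 3.01 and 6.38 in the dTAG-V1 list. Among all promoter peaks of the same lists, the medians were 4.35 and 3.24, and folds reached 41.6 and 37.6.

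Summits lay at or after the TSS in a larger share of histone peaks than of all promoter peaks. Of the dTAG-V1 peaks of histone genes, 24 of 34 had their summit at or after the nearest TSS, or 70.6% (53.8 to 83.2), beside 35.1% of all promoter peaks, and for the untreated list it was 14 of 26, or 53.8% (35.5 to 71.2), beside 32.6%. The median summit lay 69 bp after the TSS in the dTAG-V1 list, beside -58 bp for all promoter peaks. In the shared regions, the summits of the 2 lists lay a median of 94 bp apart (4 to 883), beside 27 bp in all shared promoter regions.

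Strong SBS matches were few in the untreated peaks. With a threshold of 1e-05 on the hit p-value, 3 of 26 untreated peaks held a match, or 11.5% (4.00 to 29.0), beside 53.5% of all promoter peaks. Of the dTAG-V1 peaks it was 9 of 34, or 26.5% (14.6 to 43.1), beside 39.5%, a share that lies inside the interval. The SBS2 matrix alone found a match in 9 of 34 dTAG-V1 peaks as well, beside 19.3% of all promoter peaks, and 1 of 26 untreated peaks beside 24.7%. At 5e-05 the shares were 57.7% beside 79.3% in the untreated and 73.5% beside 67.6% in the dTAG-V1 list. A wide peak has more room for a match, and per kb of peak there were 1.50 SBS hits in the untreated and 1.13 in the dTAG-V1 peaks of histone genes, beside 4.87 and 3.51 in all promoter peaks. Within 100 bp of the peak centre, 38.5% (22.4 to 57.5) of untreated histone peaks held a hit at 5e-05, beside 59.1%. For the dTAG-V1 list it was 20.6% (10.3 to 36.8) beside 44.4%, which lies outside the interval. The histone peaks also held fewer G and C bases, a median of 50.6% beside 58.7% in the untreated and 49.8% beside 55.2% in the dTAG-V1 list. Hit p-values rest on the base frequencies of the genome, and the part of base content in these motif shares was not tested.

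**Figure D4:**
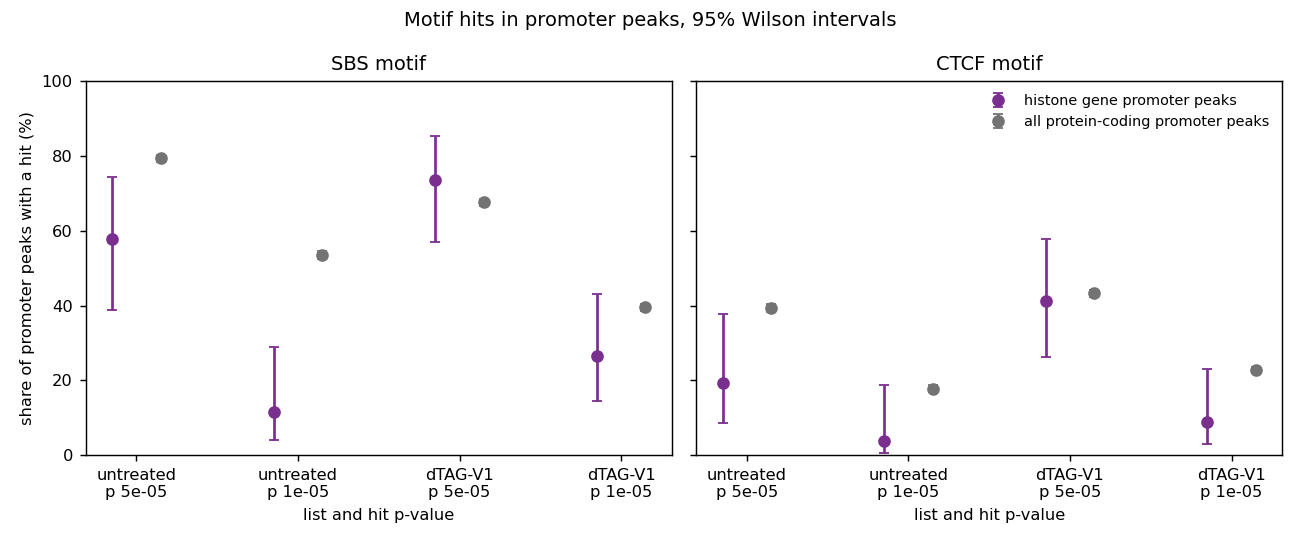
Points give the share of promoter peaks, in percent, with a hit to the SBS matrices (left) or the CTCF matrix (right) at hit p-values of 5e-05 and 1e-05 in each list, for histone genes and for all protein-coding genes, with 95% Wilson intervals. The histone points lie below the others in every pair except SBS at 5e-05 in the dTAG-V1 list, with 73.5% beside 67.6%, and the intervals of the dTAG-V1 list include the share of all promoters in all 4 of its pairs.

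Of the 9 dTAG-V1 peaks with an SBS match at 1e-05, 7 had their best match in the coding sequence of an H2A gene, such as the 5 printed above. The whole coding sequence of every member was then searched, and the SBS2 matrix found a match at 5e-05 in the coding sequence of 12 of 17 H2A genes, 0 of 18 H2B genes, 1 of 13 H3 genes, 3 of 15 H4 genes and 1 of 6 H1 genes. H2AC8, an H2A gene without a peak, had such a match as well. Coding sequences of other protein-coding genes were not searched, so that no background share can be given. The matched bases were the same in H2AC18 and H2AC19, and in H2AC11 and H2AC16. The matches of the H2A genes are therefore not independent of each other. The remaining matches at 1e-05 in the dTAG-V1 list, those of H4C4 and H4C5, lay outside coding sequence, with p-values of 3.84e-06 and 7.09e-07, and both were also in the untreated peaks.

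CTCF matches at 1e-05 were found in 1 of 26 untreated peaks (3.85%, interval 0.682 to 18.9) and in 3 of 34 dTAG-V1 peaks (8.82%, 3.05 to 22.96), beside 17.8% and 22.9% of all promoter peaks. At 5e-05 the untreated share was 19.2% beside 39.3%, and the dTAG-V1 share 41.2% beside 43.3%. The 3 dTAG-V1 peaks with a match at 1e-05 were those at H4C2 (9.84e-08), H2AC25 and H2BC26 (2.70e-06), and H2AC21 and H2BC21 (3.94e-06).

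The promoters carried the elements of their families. In the 300 bases around the 5′ end, the TATA box was found in 46 of 69 histone promoters, or 66.7%, beside 10.8% of all protein-coding promoters, and the CCAAT box in 59 of 69, or 85.5%, beside 35.9%. The octamer was found in 13 of 18 H2B and 12 of 17 H2A promoters, beside 1.70% of all promoters. The H4 element core was found in 12 of 15 H4 promoters beside 12.6%, and the H1 box in 6 of 6 H1 promoters beside 5.11%. In the shorter window from 100 bases before the 5′ end, the H1 box was found in 0 of 6 H1 promoters, and the octamer in 1 of 17 H2A and 8 of 18 H2B promoters, while the H4 element core stayed at 12 of 15. Among all protein-coding promoters, that window held the H1 box in 2.18%, the octamer in 0.751% and the H4 element core in 6.82%. Head-to-head pairs share these letters. The TATA box was found in 22 of 30 genes with a peak in both lists, 9 of 15 with a peak in the dTAG-V1 list only and 15 of 24 without a peak. The H4 element core was present in 8, 1 and 6 of these genes, and the octamer in 11, 7 and 8. A match of these letters is a description and not a binding site.

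Between the first and the last histone gene of each chromosome 6 cluster, outside their promoter windows, lay 5 peaks of the untreated list and 12 of the dTAG-V1 list. Of these, 2 of 5 and 8 of 12 lay outside protein-coding genes, and 1 of the 12 lay at the promoter of another gene, TRIM38. The others lay in introns of histone genes or exons of HFE. All of these peaks are called peaks between genes here. They formed 15 regions, of which 2 were found in both lists, 3 in the untreated list only and 10 in the dTAG-V1 list only. Of all 40687 merged regions, 36.4% were found in both lists, 13.5% in the untreated list only and 50.2% in the dTAG-V1 list only. These include the 11501 protein-coding promoter regions, for which the shares were 55.9%, 10.6% and 33.5%. Away from promoters the share found in both lists is therefore lower than 36.4%, and that in the dTAG-V1 list only is higher than 50.2%. The peak with the highest score was found in both lists with almost the same borders, chr6:26029290-26029644 when untreated and chr6:26029282-26029642 after dTAG-V1. Its scores were 641 and 654, at the 77.2 and 92.1 percentiles, and it held no SBS or CTCF match. It lies outside protein-coding genes, 2184 bp from the 5′ end of H4C2 in the untreated list.

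Few peaks between the genes stand behind their motif shares. At 1e-05 a CTCF match was found in 5 of 12 dTAG-V1 peaks, or 41.7% (19.3 to 68.0), beside 37.4% of all dTAG-V1 peaks outside protein-coding promoters, and in 1 of 5 untreated peaks beside 19.4%. SBS matches at 1e-05 were found in 1 of 12 dTAG-V1 peaks beside 14.1%, and in 0 of 5 untreated peaks (interval up to 43.4%) beside 34.2%. The 3 CTCF matches shown are those of the other region in both lists, downstream of H1-1, and of 2 peaks of the dTAG-V1 list only, the first farther downstream of H1-1 and the second in an intron of H2BC11. Capitals mark the match.
Downstream of H1-1, chr6:26003279-26003292, minus strand: tttgcCCAGCAGAGGGAGGcctcg
Farther downstream of H1-1, chr6:25890641-25890654, minus strand: attccCCAGAAGGTGGAGCcaaag
Intron of H2BC11, chr6:27127232-27127245, plus strand: tatcgCCACAAGATGGCGAtagcg

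The first of these lay 1 bp from the summit of its dTAG-V1 peak, which had a score of 138 and a width of 799 bp, and 32 bp from that of its untreated peak, which had a score of 55 and a width of 246 bp. The other peaks had scores of 213 and 164, with the match 13 and 4 bp from the summit. A further peak of the dTAG-V1 list only, 890 bp wide with a score of 187, lay in an exon of a neighbouring protein-coding gene. Of the peaks found only in the untreated list, the highest scores were 357, in an intron of H2BC5, and 178, in an intron of H2BC11. The remaining one had a score of 53, and none of the 3 held an SBS or CTCF match.

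Genes of other histones and of the pathway that makes histone mRNA were counted in the same way. Of all protein-coding genes, 40.5% had a promoter peak in the untreated and 48.2% in the dTAG-V1 list. Of 12 genes listed here as replication-independent histone genes, 5 had one in the untreated and 7 in the dTAG-V1 list. H3-3B had a peak of 473 bp with a score of 242731 and a fold of 37.0 in the untreated list, and of 692 bp with a score of 79269 and a fold of 30.4 in the dTAG-V1 list, at the 99.9 percentile in both. H3-3A, which also encodes H3.3, had peaks of 1069 and 2275 bp with scores of 435 and 509. H2AX, the variant phosphorylated at DNA breaks, had scores of 841 and 87.

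Of 21 genes for factors of histone gene expression and mRNA processing, 16 had a promoter peak in the untreated and 17 in the dTAG-V1 list. The shares of all protein-coding genes were 40.5% and 48.2%. SYMPK, the scaffold of the cleavage complex, had a score of 107417 in the untreated and 43484 in the dTAG-V1 list, and LSM10, a protein of the U7 snRNP, 46526 and 14956. ZNF473, which acts with the U7 snRNP, had scores of 78331 and 24230. The best SBS2 matches of these untreated peaks had p-values of 2.19e-11, 3.03e-09 and 2.97e-08. HINFP had scores of 1711 and 115, at the 84.4 and 50.3 percentiles. NPAT had a peak only in the dTAG-V1 list, with a score of 75. Of 19 histone chaperone genes, 13 had a promoter peak in the untreated and 16 in the dTAG-V1 list, beside the same 40.5% and 48.2%. UBN1, a subunit of the HIRA complex that deposits H3.3, held the highest score, 7847 in the untreated and 1382 in the dTAG-V1 list.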

How the data were processed

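ChIP-seq samples were grouped by GEO's labels, which say untreated where the peak names of that list say DMSO. Of 14 samples, 8 stand behind the lists, and the 6 CTCF samples were not analysed here. According to the methods, the authors mapped reads with bwa mem to hg38, kept uniquely mapped proper pairs, removed duplicates with Picard and called narrow peaks with MACS2, without a named control. The methods keep peaks found in each of 4 untreated and any of 4 dTAG-V1 replicates; whether the deposited lists were filtered so is unknown. The deposited score is the integer score of MACS2. The deposited fold is the enrichment ratio at the summit. The deposited q-value is a −log10 q-value. Depth is unknown, and a weak peak can be missed in 1 list without a change in binding.

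Peaks were assigned to GENCODE release 44 genes with Python 3.11.15, pandas 2.3.3 and pysam 0.24.0 and merged with bedtools 2.31.1 at 1 bp. Clusters were split at gaps over 300000 bp. SBS1, SBS2 and CTCF matrices were learned from merged peaks on odd-numbered autosomes and searched at p 5e-05 and 1e-05, as tested on simulated data. RefSeq promoters matched 64 of 69 genes; H4C1, H4C3, H2AC12, H3C11 and H3C12 did not match, and the entry for H3C4 has the coordinates of H2AC7, so that it was not used as H3C4's own promoter. Members and lists were chosen with earlier results of these data known. Named were the 5 highest-scoring members of each list, the highest of each family, up to 10 members in 1 list only, those without a peak, the 3 highest peaks between genes per class, and up to 8 SBS and 4 CTCF sites. Alternatives were q-value, window, summit, TSS, overlap, cluster span and motif settings.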

Additional observations from a re-analysis of the deposited data

How the results depend on the processing

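No paired analysis was possible because each list pools its group, and for the same reason no replicate could be left out. Of 63 alternative values, 45 stayed close to the main value, 18 moved and 0 reversed, judged on the histone genes' own values. Beside all protein-coding genes, some shares changed sides. The untreated share, 43.5% beside 40.5%, became 33.3% beside 37.7% with a −log10 q-value of at least 5. It moved the other way with only the 5′ end of each gene, 43.5% beside 33.5%, and with the canonical TSS, 40.6% beside 35.4%. The share in both lists, 43.5% beside 37.2%, became 31.9% beside 33.7%, and 17.4% beside 30.9% with 500 bp on each side. The dTAG-V1 share stayed higher, at 62.3% beside 43.6% and 44.9% beside 39.2%. The count of genes with a peak in both lists fell from 30 to 12 with 500 bp on each side of the TSS, in the untreated list from 30 to 15, and genes in the untreated list only rose from 0 to 3. With a −log10 q-value of at least 5, H2BC6 was 1 gene in the untreated list only. Requiring 50% of each peak to overlap left 4 of 26 untreated and 4 of 34 dTAG-V1 peaks as shared (15.4% and 11.8%, beside 67.9% and 50.7% of all promoter peaks), from 24 and 21 at 1 bp. With 1 span over chromosome 6 there were 71 untreated and 107 dTAG-V1 peaks between genes, since the span includes stretches without histone genes. SBS shares at 1e-05 were 11.5% in the untreated and 26.5% in the dTAG-V1 list. Within 100 bp of the centre they were 38.5% and 20.6%, beside 59.1% and 44.4% of all promoter peaks. CTCF shares at 1e-05 were 3.85% and 8.82%. Within 100 bp of the centre they were 7.69% and 11.8%, beside 19.5% and 23.5%. In the shorter window of 100 bases before the 5′ end, the octamer was found in 13.04% and the H1 box in 4.35% of histone promoters. Beside these stand 0.751% and 2.18% of all protein-coding promoters, and other causes were not tested. The canonical TSS and the removal of the 6 repeated genes were added after the data were seen, and H2BC6 and H3C12 lost their peaks with the former. Depth cannot be set against any of these counts.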
